A study of Homo sapiens with 16 samples.

Results

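Zinc finger (ZNF) genes were followed in U2OS cells, an established human osteosarcoma line, after 6 h with a compound. A gene belongs to the set when its symbol is ZNF followed by a number and at most 1 letter, and when its RNA reached an FPKM (fragments scaled by transcript length and library size) of at least 3 in the DMSO library. This took 131 of 527 ZNF genes, out of 25270 genes in the deposited matrix. The treated libraries were T4, T5 and CPT, each at 0.5, 2, 5, 10 and 20 µM, and the solvent control was 1 DMSO library at the same time. T4 and T5 are described by the submitters as modulators of alternative polyadenylation (APA), that is, of the choice among sites for cleavage and tailing of a transcript's 3' end. CPT is named as the labels name it. The cells are 1 tumour line and every dose had 1 library, so no condition was replicated.

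C2H2 zinc finger proteins are the largest class of human transcription factors. Each finger folds around a zinc ion held by a pair of cysteines and a pair of histidines, and a row of fingers reads a stretch of DNA. Many also carry a KRAB domain, which recruits TRIM28 and through it SETDB1, a histone methyltransferase, and HP1 proteins, so that the bound DNA, often a transposable element, is silenced. KRAB genes arose by repeated duplication and lie in clusters, most of them on chromosome 19, while other ZNF proteins activate promoters, bind RNA or work in ribosome assembly and quality control.

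Because FPKM is a share of each library, fewer transcripts per cell and a shift in all other RNA cannot be told apart here. The depth of the treated libraries, read from the steps between low values, was 0.639 to 0.997 of that of DMSO. Of 10 bone and mesenchymal markers, 7 had an FPKM of at least 1 in DMSO and their summed FPKM was 1022 to 1725 over the 16 libraries, with IBSP listed at 0 in DMSO, BGLAP near 0 and COL1A2 at 0.0510. Of 6 epithelial markers 2 reached 1 in DMSO (summed FPKM 5.49 to 20.6) and of 6 blood markers none did (summed FPKM 0.0694 to 2.36). No ZNF gene of the set was listed at 0 in any library. Many ZNF genes have near-identical relatives, so fragments may be divided between paralogs, and whether the counting used the strand is not given in the sources used here.

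Most ZNF genes of the set were expressed at low levels. Their median FPKM in DMSO was 4.88, against 11.6 for the 8571 other genes that reached the same threshold, with 68 below 5 and 23 at 10 or more. Just inside the threshold lay ZNF395 (3.01), ZNF124 (3.02) and ZNF558 (3.03), and just outside it ZNF408 (2.98), ZNF284 (2.98) and ZNF567 (2.99). The highest was ZNF207, which binds microtubules and the spindle checkpoint protein BUB3, at 83.3 in DMSO. It was followed by the pseudogene ZNF542P (45.1), ZNF22 (30.2), ZNF664 (30), ZNF410 (29.9), known as an activator of the remodeller gene CHD4, and ZNF146 (29.7), a protein made almost wholly of fingers. These levels chose the set, so ratios to DMSO are given as description and no test compares with that library, though it entered the filter on low values.

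Relative to DMSO, the median level of the ZNF genes was lower at each higher dose of T4 and T5 and moved less with CPT. Single genes differed: among the doses of T4, 73 of 131 were lowest at 20 µM and 38 at 10 µM. With T5 these counts were 70 and 31. The median ZNF gene stood at 95.3, 64.9, 40.5, 29.3 and 23.9% of its DMSO level from 0.5 to 20 µM T4, and at 79.7, 51.3, 32.5, 28.8 and 24.5% with T5. With CPT the medians were 117, 119, 94.0, 82.4 and 81.4%, so that both low doses stood above DMSO. At 20 µM the other genes over the same threshold had medians of 80.2% with T4, 75.3% with T5 and 81.5% with CPT. ZNF genes lower than DMSO by 2-fold or more on the log2(FPKM + 1) scale numbered 87 of 131 (66.4%) with 20 µM T4, 85 (64.9%) with T5 and 33 (25.2%) with CPT, where 26.0%, 30.1% and 24.9% of all 8702 genes over the threshold were that low. At that dose 52, 49 and 17 ZNF genes (39.7%, 37.4% and 13%) had an FPKM below 1 with T4, T5 and CPT. Of the 8571 other genes over the threshold 5.3%, 7.11% and 4.28% did. Of 34 genes named ZBTB, ZFP, ZKSCAN or ZSCAN 44.1%, 47.1% and 11.8% did. The ZNF genes stood nearer to 1 already in DMSO, with a median of 4.88 against 11.6 for the other genes.

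**Figure D1:**
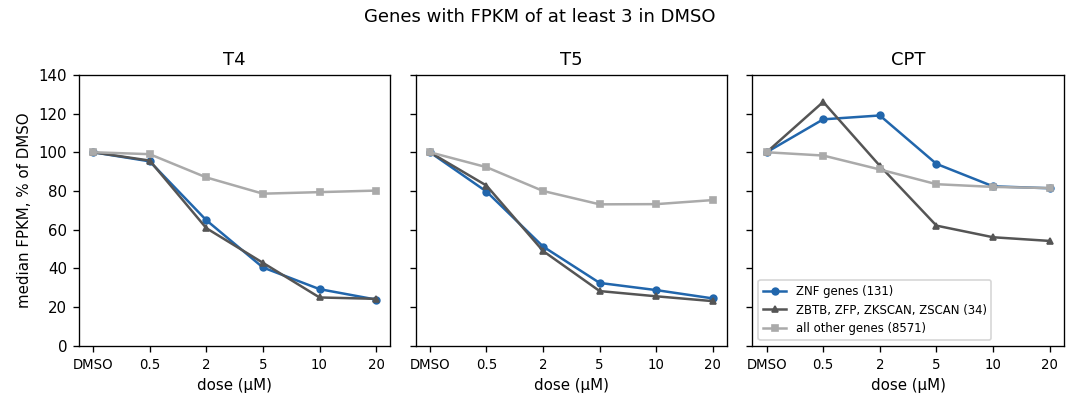
Median FPKM as a percentage of DMSO (y axis) against dose (x axis, DMSO and 0.5 to 20 µM) for T4, T5 and CPT, for the 131 ZNF genes (circles), 34 genes named ZBTB, ZFP, ZKSCAN or ZSCAN (triangles) and 8571 other genes with an FPKM of at least 3 in DMSO (squares). The ZNF median reaches 23.9% at 20 µM T4 and 24.5% at 20 µM T5, and 81.4% at 20 µM CPT.

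**Figure D2:**
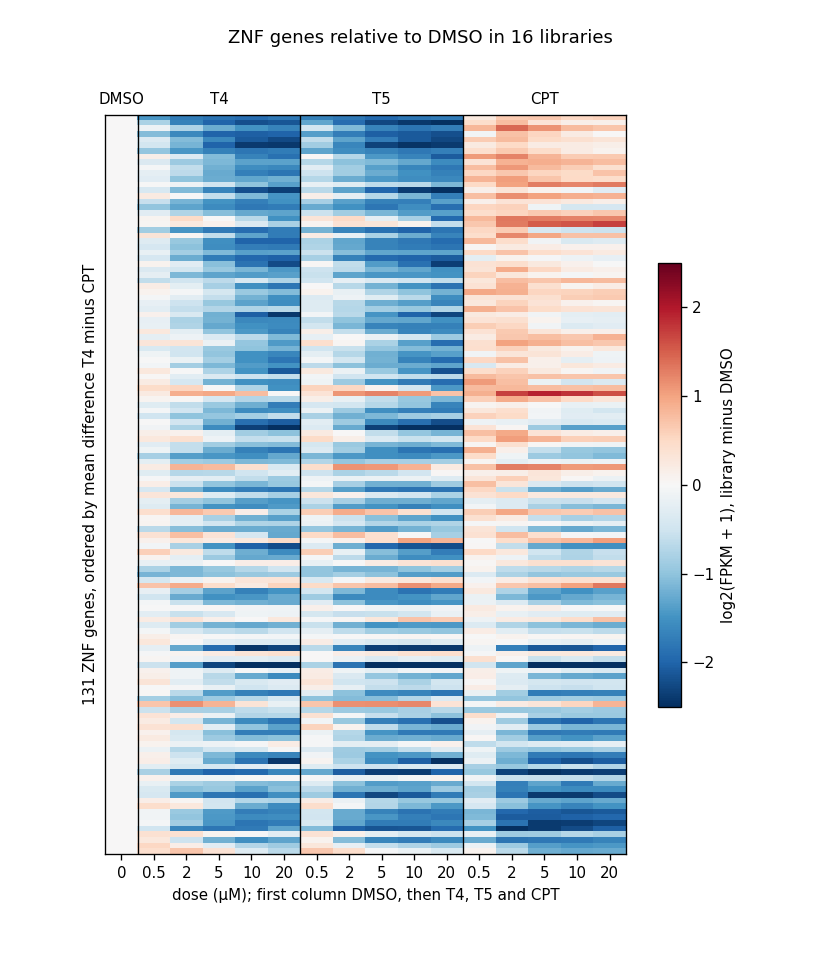
Difference from DMSO on the log2(FPKM + 1) scale (colour, blue lower and red higher) for each of the 131 ZNF genes (rows, ordered by the mean difference between T4 and CPT) in each library (columns, DMSO then 0.5 to 20 µM of T4, T5 and CPT). Most upper rows are blue with T4 and T5 and pale or red with CPT, and the lowest rows are on average bluer with CPT than with T4, some of them red at low doses of T4 and T5.

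With rising T4 dose, ZNF RNAs fell in most cases. In a limma fit to the 15 treated libraries, with a line on log2 dose for each compound, 98 of 131 ZNF genes fell from 0.5 to 20 µM T4 and 3 rose (adjusted p below 0.05), where 36.3% of all 10600 genes tested fell and 23.3% rose. Among tested genes with at least 3 in DMSO 38.3% fell and 23.1% rose. The median ZNF change over that range was -1.20 on the log2(FPKM + 1) scale, against -0.17 for all genes. The filter on low values, a mean FPKM of at least 1 over the 16 libraries, was passed by ZNF346 and ZNF827 only through DMSO, with 3.25 and 3.83 there and means of 0.930 and 0.904 over the treated libraries. With the filter on the 15 treated libraries, an alternative chosen after seeing the data, 97 of 129 fell and 3 rose with T4, 93 fell and 7 rose with T5, and 57 fell and 10 rose with CPT.

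Over the T4 doses ZNF146 had FPKM values of 27.9, 16.7, 9.33, 5.12 and 3.73 from 0.5 to 20 µM, with 29.7 in DMSO. Its fitted change, -2.73 ± 0.25 (adjusted p = 7.79e-06), was the largest T4 fall in the set, where ± gives the standard error of the fit here and below. ZNF410 had 33.9, 23.9, 11.9, 7.54 and 4.74 and changed by -2.70 ± 0.28 (adjusted p = 1.64e-05). ZNF217, a breast cancer oncogene that works with CoREST-type corepressors, had 7.82, 5.23, 2.54, 0.987 and 0.533, against 7.15 in DMSO, and changed by -2.68 ± 0.21 (adjusted p = 4.2e-06). All 3 dropped at every step of dose from 0.5 to 20 µM. ZNF317 (-2.45 ± 0.22, adjusted p = 8.24e-06) and ZNF639 (-2.44 ± 0.29, adjusted p = 4.17e-05) completed the 5 largest falls. The 3 genes that rose with T4 were ZNF185, an actin-associated protein with a LIM domain (0.83 ± 0.10, adjusted p = 4.74e-05), ZNF664 (0.45 ± 0.08, adjusted p = 0.000589) and ZNF853 (0.39 ± 0.11, adjusted p = 0.00712). ZNF185 had 12.9, 15.8, 19.2, 22.1 and 22.6 over the T4 doses, against 17.8 in DMSO, and ZNF664 had 29.3, 31.5, 34.9, 38 and 39.7, against 30.

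T5 gave falls in a like number of ZNF genes. From 0.5 to 20 µM T5, 94 of 131 fell and 7 rose, where 35.3% of all tested genes fell and 26.8% rose (37.5% and 26.5% of those with at least 3 in DMSO), and the ZNF median was -0.99, against -0.10 for all genes. ZNF146 had 23.2, 11.8, 5.13, 3.5 and 2.75 and changed by -2.85 ± 0.25 (adjusted p = 8.24e-06). ZNF410 had 31.3, 17, 9.32, 6.5 and 4.31 and changed by -2.64 ± 0.28 (adjusted p = 2.2e-05). ZNF639 (-2.44 ± 0.29, adjusted p = 4.58e-05), ZNF317 (-2.43 ± 0.22, adjusted p = 1.01e-05) and ZNF124 (-2.43 ± 0.25, adjusted p = 1.92e-05) followed. The largest rises with T5 were ZNF358 (1.08 ± 0.18, adjusted p = 0.000299), ZNF185 (0.81 ± 0.10, adjusted p = 5.84e-05), ZNF219 (0.79 ± 0.17, adjusted p = 0.00183), ZNF853 (0.62 ± 0.11, adjusted p = 0.00038) and ZNF280D (0.62 ± 0.22, adjusted p = 0.0291). T4 and T5 trends share no library, but they come from 1 fit with a common estimate of the spread, so their calls are not independent. In both, 91 ZNF genes fell, which is 92.9% of the T4 falls and 96.8% of the T5 falls. Over all tested genes 3428 fell in both, 89.1% of the T4 falls and 91.5% of the T5 falls.

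CPT dose was followed by falls of some ZNF genes and rises of a few. Of 131, 59 fell and 10 rose from 0.5 to 20 µM CPT, where 29.8% of all tested genes fell and 23.4% rose (32.3% and 23.9% of those with at least 3 in DMSO), and the ZNF median was -0.45, against -0.07. ZNF542P, which had 31.5, 17.6, 6.93, 6.11 and 6.65 over the CPT doses and 45.1 in DMSO, changed by -2.36 ± 0.39 (adjusted p = 0.000606). ZNF131, a BTB-domain transcription factor, had 11.9, 5.54, 2.34, 2.01 and 2.4 and changed by -2.14 ± 0.28 (adjusted p = 0.000235). ZNF410 (-2.08 ± 0.28, adjusted p = 0.000257), ZNF770 (-2.02 ± 0.19, adjusted p = 0.000121) and ZNF146 (-1.94 ± 0.25, adjusted p = 0.000221) fell too. The largest rises with CPT were ZNF428 (1.14 ± 0.20, adjusted p = 0.000888), ZNF358 (1.03 ± 0.18, adjusted p = 0.000747), ZNF574 (1.02 ± 0.33, adjusted p = 0.0223), ZNF669 (0.80 ± 0.22, adjusted p = 0.00966) and ZNF219 (0.79 ± 0.17, adjusted p = 0.00281). ZNF669 had 4.68, 7.08, 8.86, 8.42 and 8.89 over the CPT doses, all above the 3.04 of DMSO. CPT levels were not ordered by dose in most of the set: 64 ZNF genes were highest at 0.5 µM and 43 at 2 µM, and 45 were lowest at 10 µM and 39 at 20 µM. With T4, 101 were highest at 0.5 µM, and 38 were lowest at 10 µM and 73 at 20 µM. With T5 these counts were 104, 31 and 70, so many genes were not lowest at the top dose there either.

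The sister families named ZBTB, ZFP, ZKSCAN and ZSCAN carry the same kind of finger. Among 31 tested they gave 25 falls and no rise with T4, 24 falls and 1 rise with T5, and 22 falls and no rise with CPT. Of all tested genes 36.3%, 35.3% and 29.8% fell and 23.3%, 26.8% and 23.4% rose. The counts of all trends depend on scale. Centring each library on its median gene took away a shift of -0.55 for T4, -0.48 for T5 and -0.35 for CPT from every trend. It gave 70 falls and 16 rises with T4, 63 and 17 with T5, and 42 and 22 with CPT. The median trend of all tested genes was then 0.38 with T4, 0.38 with T5 and 0.27 with CPT. Quantile normalization gave 71 falls and 13 rises with T4, 66 and 13 with T5, and 44 and 17 with CPT. Shares over all genes under these scalings are not given here, so nothing particular to ZNF genes is read from these counts. Without the library of 0.5 µM CPT 21 ZNF genes fell and none rose with CPT, and without that of 0.5 µM T5 56 fell with T5. On a linear dose scale 51 fell with T4, 38 with T5 and none with CPT.

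The steepness of the fall differed between compounds for part of the set. The T4 trend was lower than the CPT trend in 32 of 131 ZNF genes and higher in 2, where 8.65% of all tested genes were lower and 2.09% higher (8.47% and 1.63% of those with at least 3 in DMSO). T5 against CPT gave 23 lower and 2 higher, where the shares of all genes were 6.72% and 2.48% (6.87% and 2.14%). Of the 31 sister genes tested, 6 were lower for T4 minus CPT and 2 for T5 minus CPT, and none was higher. ZNF217 showed the gap: it had 7.82, 5.23, 2.54, 0.987 and 0.533 with T4, 6.74, 4.09, 1.93, 1.04 and 0.654 with T5 and 8.72, 8.21, 6.72, 5.88 and 5.83 with CPT from 0.5 to 20 µM. Its T4 trend was lower than its CPT trend by a difference of -2.10 ± 0.30 (adjusted p = 0.00137), and its T5 trend by -1.77 ± 0.30 (adjusted p = 0.00518). From 2 µM upwards the T4 and T5 values lay below every CPT value. ZNF669 fell with T4 (-1.39 ± 0.22, adjusted p = 0.000254) and T5 (-0.89 ± 0.22, adjusted p = 0.00419) and rose with CPT, and the differences of its trends were -2.19 ± 0.31 (adjusted p = 0.00126) for T4 minus CPT and -1.69 ± 0.31 (adjusted p = 0.00737) for T5 minus CPT. After median centring 23 ZNF genes were lower and 8 higher for T4 minus CPT, and 21 and 7 for T5 minus CPT. Without the library of 0.5 µM CPT the lower counts were 12 and 9. They were 8 and 5 on a linear dose scale. With DMSO entered as dose 0 they were 75 and 74, but that library chose the genes, so nothing is read from these 2 counts.

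T5 and T4 trends did not differ by this test in any ZNF gene (0 of 131, and 0.0% of all 10600 genes, limma). At an unadjusted p below 0.05, 10 ZNF genes were higher and 1 lower for T5 minus T4, with 335 and 68 among all genes. The median 95% interval of this difference reached 0.69 log2 units to either side in ZNF genes, so differences of that size cannot be told from none.

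At matched doses the level of most ZNF genes was lower with T4 or T5 than with CPT. With dose as a block, 79 of 131 ZNF genes were lower and 26 higher with T4 than with CPT, where 41.3% of all tested genes were lower and 31.4% higher (39.7% and 34.4% of those with at least 3 in DMSO). For T5 against CPT 86 were lower and 15 higher, where 41.3% and 27.2% of all genes were (40.3% and 29.3%). The filter on the 15 treated libraries, chosen after seeing the data, leaves out ZNF346 and ZNF827. With it 79 of 129 were lower and 25 higher with T4 than with CPT, and 85 and 14 with T5. The median differences were -0.62 and -0.65, against -0.09 and -0.10 for all genes. The sister families moved in the same direction. Of 31 tested genes named ZBTB, ZFP, ZKSCAN or ZSCAN, 17 were lower and 3 higher with T4 than with CPT, and 20 and 2 with T5, with medians of -0.48 and -0.61. The difference was thus not particular to genes named ZNF. All 5 T4 libraries lay below all 5 CPT libraries in 43 ZNF genes (15.4% of tested genes) and above them in 3 (11.3%). All 5 T5 libraries lay below in 51 (17.2%) and above in 1 (9.2%).

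The widest gap between T4 and CPT was in ZNF623, which had 0.785, 0.45, 0.369, 0.307 and 0.426 with T4 and 0.52, 0.411, 0.28, 0.383 and 0.432 with T5, against 4.79, 6.68, 6.79, 6.03 and 6.26 with CPT, and 3.9 in DMSO. Already at 0.5 µM the T4 and T5 values lay under 1, and every CPT value stood above that of DMSO. Its mean differences were -2.28 ± 0.11 (adjusted p = 2.25e-07) for T4 minus CPT and -2.33 ± 0.11 (adjusted p = 1.71e-07) for T5 minus CPT. ZNF518B, a partner of the histone methyltransferases G9a and EZH2, had 3, 1.12, 0.716, 0.492 and 0.562 with T4 and 1.81, 0.848, 0.424, 0.302 and 0.228 with T5, against 8.29, 10.7, 7.71, 6.59 and 6.51 with CPT. Its mean differences were -2.13 ± 0.15 (adjusted p = 1.39e-06) and -2.43 ± 0.15 (adjusted p = 6.52e-07), and none of its T4 or T5 values overlapped those of CPT. ZNF697 (-2.04 ± 0.20, adjusted p = 6.75e-06) and ZNF75A (-2.03 ± 0.18, adjusted p = 4.18e-06) were the next lowest for T4, and ZNF697 (-2.32 ± 0.20, adjusted p = 3.19e-06) and ZNF7 (-2.18 ± 0.23, adjusted p = 1.51e-05) for T5.

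In the other direction ZNF800 had 5.09, 6.36, 4.83, 2.6 and 1.83 with T4 and 6.26, 5.18, 3.41, 3.02 and 2.48 with T5, against 3.83, 1.84, 0.946, 0.87 and 0.882 with CPT. It fell with each compound, and its level was higher with T4 by 0.97 ± 0.15 (adjusted p = 0.000179) and with T5 by 0.98 ± 0.15 (adjusted p = 0.000196) than with CPT. ZNF706 (0.83 ± 0.08, adjusted p = 8.65e-06), ZNF608 (0.80 ± 0.19, adjusted p = 0.00263) and ZNF207 (0.80 ± 0.11, adjusted p = 5.92e-05) were also higher with T4 than with CPT. For T5 these were ZNF706 (0.64 ± 0.08, adjusted p = 5.84e-05), ZNF365 (0.64 ± 0.16, adjusted p = 0.00438) and ZNF148 (0.59 ± 0.09, adjusted p = 0.000141). ZNF207 had 108.2, 109.0, 87.2, 81 and 68.9 with T4 and 107.4, 90.9, 70.5, 61.4 and 57.1 with T5, against 73.6, 43.7, 44.6, 50.7 and 46.9 with CPT and 83.3 in DMSO. After median centring the T5 minus CPT counts were 76 lower and 31 higher.

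Between T5 and T4 at matched doses 10 of 131 ZNF genes were lower with T5 and none higher, where 6.02% of all tested genes were lower and 1.08% higher (7.19% and 0.899% of those with at least 3 in DMSO), and the median difference was -0.14. At an unadjusted p below 0.05 (limma) 25 ZNF genes were lower and 4 higher, with 2131 and 732 among all tested genes. The 10 lower genes are 7.63% of the set, close to the 7.19% of tested genes with at least 3 in DMSO. Nothing particular to ZNF genes is read from these counts, and the genes below are named as description. ZNF609, whose mouse counterpart is linked to the Integrator complex and cohesin loading, had 3.68, 1.46, 1.22, 1.26 and 1.61 with T5 and 6.1, 2.2, 1.84, 1.94 and 2.99 with T4, with a mean difference of -0.47 ± 0.10 (adjusted p = 0.0251). At each of the 5 doses its T5 value was the lower one, though the ranges of the compounds overlapped. ZNF542P (-0.40 ± 0.06, adjusted p = 0.0135), ZNF131 (-0.39 ± 0.09, adjusted p = 0.0353) and ZNF638, which takes part in silencing unintegrated retroviral DNA (-0.38 ± 0.09, adjusted p = 0.0294), followed. No ZNF gene had all 5 T5 libraries apart from all 5 T4 libraries, as was so for 0.189% of tested genes on the lower side and 0.0189% on the higher side. These calls depend on scale and on single libraries: median centring left 2 lower and 3 higher, quantile normalization none, and leaving out 1 library at a time gave 0 to 19 lower. None was lower without 5 or 10 µM T5 or without 5, 10 or 20 µM T4, 1 without 20 µM T5 or 2 µM T4, and 2 without 2 µM T5. The count was 5 without 0.5 µM T5, 6 without 10 µM CPT and 19 without 0.5 µM CPT.

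**Figure D3:**
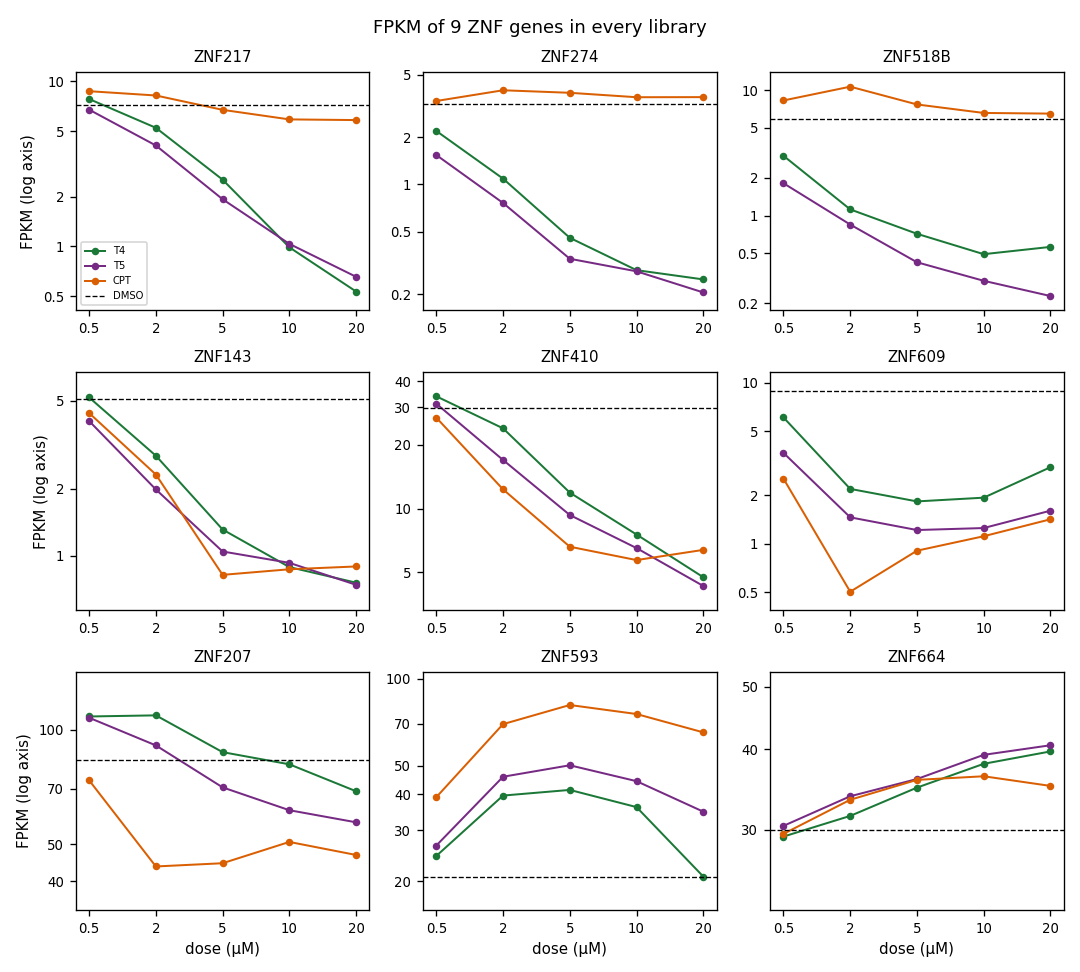
FPKM (y axis, log scale) against dose (x axis, µM) of 9 ZNF genes with T4, T5 and CPT, 1 library per point, and DMSO as a dashed line. ZNF217, ZNF274 and ZNF518B are lower at 20 µM T4 and T5 than at 20 µM CPT, ZNF143 and ZNF410 fall with all 3 compounds, and ZNF593 is highest with CPT.

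Of 17 listed transcription factors outside the KRAB class 13 belonged to the set, and 11 of them fell with T4, 9 with T5 and 9 with CPT, and none rose with any compound. Among all tested genes 36.3% fell with T4, 35.3% with T5 and 29.8% with CPT, and 23.3%, 26.8% and 23.4% rose, as a background for this and the next lists. Of the whole ZNF set 74.8%, 71.8% and 45% fell and 2.29%, 5.34% and 7.63% rose. Lists of ZNF genes drawn from the set share in this, and were not tested against the rest of it. ZNF143, an activator of small nuclear RNA genes and many other promoters, had 5.17, 2.82, 1.31, 0.889 and 0.756 with T4, 4.05, 1.99, 1.04, 0.929 and 0.739 with T5 and 4.4, 2.32, 0.82, 0.869 and 0.894 with CPT, against 5.08 in DMSO. It fell with T4 (-1.94 ± 0.26, adjusted p = 8.14e-05), T5 (-1.58 ± 0.26, adjusted p = 0.000311) and CPT (-1.66 ± 0.26, adjusted p = 0.000461), and all 3 compounds ended under 1. ZNF148, which binds GC-rich promoters, also fell with T4, T5 and CPT, by trends of -1.84 ± 0.33, -1.30 ± 0.33 and -1.52 ± 0.33. ZNF384, whose gene is fused in some acute leukaemias, changed by -1.54 ± 0.21, -1.63 ± 0.21 and -0.86 ± 0.21, and ZNF24, a SCAN-domain factor, by -1.29 ± 0.25, -1.50 ± 0.25 and -0.77 ± 0.25. ZNF281, a factor of stem cells and of epithelial to mesenchymal transition, fell with T4 (-0.83 ± 0.20, adjusted p = 0.0034) and CPT (-0.53 ± 0.20, adjusted p = 0.0382), and was not called with T5 (-0.14 ± 0.20, adjusted p = 0.565).

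ZNF687 and ZNF592 form a complex with ZMYND8. ZNF687 fell with T4 (-1.09 ± 0.13, adjusted p = 3.71e-05) and T5 (-0.89 ± 0.13, adjusted p = 0.000133) and had a CPT trend of 0.22 ± 0.13 (adjusted p = 0.167), and its mean level with T4 was lower than with CPT by a difference of -1.51 ± 0.16 (adjusted p = 1.07e-05). ZNF592 fell with T4 (-0.66 ± 0.16, adjusted p = 0.00384) and T5 (-0.53 ± 0.16, adjusted p = 0.012), and its mean difference from CPT with T4 was -0.02 ± 0.07 (adjusted p = 0.831). ZNF644, a partner of G9a, fell with T4 (-1.23 ± 0.45, adjusted p = 0.0313) and CPT (-1.52 ± 0.45, adjusted p = 0.0136) and had a T5 trend of -0.98 ± 0.45 (adjusted p = 0.0723). ZNF503, a corepressor, passed no trend test, with -0.92 ± 0.41 for T4, -0.14 ± 0.41 for T5 and 0.84 ± 0.41 for CPT.

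Of 11 ZNF genes with roles in RNA, ribosomes and protein quality control, 5 fell with T4, 5 with T5 and 4 with CPT, or 3 with CPT without ZNF346, and none rose. These counts are close to the 36.3%, 35.3% and 29.8% of all tested genes and under the 74.8%, 71.8% and 45% of the ZNF set. Nothing is read from them about the list. ZNF593, whose yeast relative acts in assembly of the large ribosomal subunit, had 24.5, 39.5, 41.3, 36 and 20.8 with T4 and 26.6, 45.9, 50.2, 44.3 and 34.8 with T5, against 39, 69.7, 81.1, 75.5 and 65.2 with CPT, and 20.7 in DMSO. No trend of it was called, but its mean level was lower with T4 by a difference of -1.01 ± 0.10 (adjusted p = 1e-05) and with T5 by -0.69 ± 0.10 (adjusted p = 0.00016). At each dose the CPT value was the highest of the 3. ZNF598, the ubiquitin ligase that marks collided ribosomes, was lower with T4 (-1.12 ± 0.18, adjusted p = 0.000184) and T5 (-0.98 ± 0.18, adjusted p = 0.000563) than with CPT too. ZNF622, a factor of the immature large subunit, was lower with T4 than with CPT (-0.47 ± 0.18, adjusted p = 0.0386), and for T5 the difference was -0.29 ± 0.18 (adjusted p = 0.177). ZNF326, of a complex that couples elongation and splicing, had no called trend and was higher with T4 (0.44 ± 0.06, adjusted p = 7.35e-05) and T5 (0.34 ± 0.06, adjusted p = 0.000578) than with CPT.

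ZNF830, known in splicing and genome stability, fell with T4 (-1.58 ± 0.53, adjusted p = 0.0207) and T5 (-2.21 ± 0.53, adjusted p = 0.00323) and had a CPT trend of 0.35 ± 0.53 (adjusted p = 0.593). ZNF330, a nucleolar protein, fell with T4 (-1.62 ± 0.51, adjusted p = 0.016) and T5 (-1.25 ± 0.51, adjusted p = 0.0476). ZNF346, which binds double-stranded RNA and passed the filter only through DMSO, had trends of -0.80 ± 0.36 for T4, -0.38 ± 0.36 for T5 and -1.02 ± 0.36 for CPT, from which no call is taken. ZNF106, an RNA-binding protein, passed no trend test, at 0.09 ± 0.34 for T4, 0.04 ± 0.34 for T5 and -0.72 ± 0.34 for CPT.

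Of 7 listed genes with roles in SUMO, DNA repair and chromatin 4 belonged to the set, and all 4 fell with T4 and with T5, and 2 with CPT. Of all tested genes 36.3%, 35.3% and 29.8% fell, and of the ZNF set 74.8%, 71.8% and 45%. ZNF274, which brings SETDB1 to the 3' ends of ZNF genes, had 2.19, 1.09, 0.457, 0.284 and 0.248 with T4 and 1.54, 0.761, 0.336, 0.279 and 0.205 with T5, against 3.4, 3.98, 3.84, 3.6 and 3.6 with CPT, and 3.27 in DMSO. It fell with T4 (-1.44 ± 0.16, adjusted p = 2.87e-05) and T5 (-1.11 ± 0.16, adjusted p = 0.000154), had a CPT trend of 0.03 ± 0.16 (adjusted p = 0.89), and the trends differed by -1.47 ± 0.23 (adjusted p = 0.00223) for T4 minus CPT. None of its T4 or T5 values reached the lowest CPT value. ZNF451, a SUMO ligase, fell with all 3 compounds, by -1.20 ± 0.21 with T4, -1.46 ± 0.21 with T5 and -1.49 ± 0.21 with CPT. ZNF518A did so as well, with -1.91 ± 0.31, -1.24 ± 0.31 and -1.54 ± 0.31. ZNF518B fell with T4 (-1.40 ± 0.24, adjusted p = 0.00045) and T5 (-1.23 ± 0.24, adjusted p = 0.000993) and had a CPT trend of -0.45 ± 0.24 (adjusted p = 0.134).

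Genes for the proteins through which KRAB factors repress moved in both directions. Of 25 listed genes 22 were tested, and 10 fell and 3 rose with T4, 11 fell and 3 rose with T5, and 9 fell and 3 rose with CPT, with medians of -0.33, -0.38 and -0.35. Among all tested genes 36.3%, 35.3% and 29.8% fell and 23.3%, 26.8% and 23.4% rose, with medians of -0.17, -0.10 and -0.07, and nothing is read from these counts about the list. TRIM28, the scaffold that the KRAB domain binds, had an FPKM of 91.7 at 20 µM T4, 113 at 20 µM T5 and 127 at 20 µM CPT, against 66.7 in DMSO, and no trend of it was called. SUV39H1, an H3K9 methyltransferase, had 0.865 at 20 µM T4 and 0.498 at 20 µM T5, against 17.1 at 20 µM CPT. It fell with T4 (-2.58 ± 0.16, adjusted p = 1.29e-06) and T5 (-2.42 ± 0.16, adjusted p = 3.72e-06). The remodeller SMARCAD1 fell with T4 (-1.91 ± 0.46, adjusted p = 0.00397), T5 (-2.03 ± 0.46, adjusted p = 0.00257) and CPT (-2.05 ± 0.46, adjusted p = 0.00339). UHRF1, which maintains DNA methylation, fell with T4 (-1.92 ± 0.19, adjusted p = 1.43e-05) and T5 (-1.93 ± 0.19, adjusted p = 1.65e-05). With CPT the methyltransferases SUV39H2 (-1.76 ± 0.34, adjusted p = 0.00136) and SETDB1 (-1.50 ± 0.27, adjusted p = 0.000897) followed SMARCAD1, with UHRF1 at -1.50 ± 0.19 (adjusted p = 0.000232).

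Features of the genes and proteins that the rule did not use were read from GENCODE release 29. A C2H2 finger pattern was found in all but 5 of the 128 genes with a translated product, with a median of 8 fingers and at most 24, and a KRAB pattern in 47, of which 25 lie on chromosome 19. In total, 39 of the 131 genes lie on that chromosome. The pattern misses divergent KRAB domains. With T4, 39 of the 47 genes with a KRAB pattern fell, and 58 of the 81 without it, with medians of -1.22 and -1.20. Of all tested genes 36.3% fell with T4, and of the ZNF set 74.8%. The 81 genes without the pattern include ZNF346 and ZNF827, which passed the filter on low values only through DMSO. At matched doses the median T4 minus CPT difference was -0.88 with the pattern and -0.47 without it, -0.92 for the 50 genes with at least 10 fingers, and -0.85 on chromosome 19 against -0.42 on other chromosomes. These groups overlap and were not tested against each other.

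The difference between compounds also went with gene span, the distance from the start to the end of the gene in the annotation. In 4 groups of the set by span, bounded at 14.4, 26.2 and 49.9 kb, the median T4 minus CPT difference was -1.07, -1.11, -0.39 and 0.26 from the shortest to the longest. In the 33 shortest genes 27 were lower and none higher with T4 than with CPT, and in the 33 longest 6 were lower and 17 higher. Of all tested genes of any span 41.3% were lower and 31.4% higher. Calls within each span range were not counted over all genes, so nothing particular to ZNF genes is read from these counts. The 33 longest include ZNF346 and ZNF827, which passed the filter on low values only through DMSO. They also include ZNF503, whose span of 121.521 kb was read from a record of that name typed as non-coding RNA. That gene has a translated product, so its span may not be that of the coding gene. Spearman's rho between span and this difference was 0.59 over the 131 ZNF genes, and 0.59 over the 10036 tested genes with a span. In the same span ranges all tested genes had medians of -0.36, -0.28, -0.07 and 0.35. For the dose trends rho with span in the ZNF genes was 0.03 for T4, -0.04 for T5 and -0.33 for CPT. Genes are not independent replicates, since the libraries are the same for all of them.

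**Figure D4:**
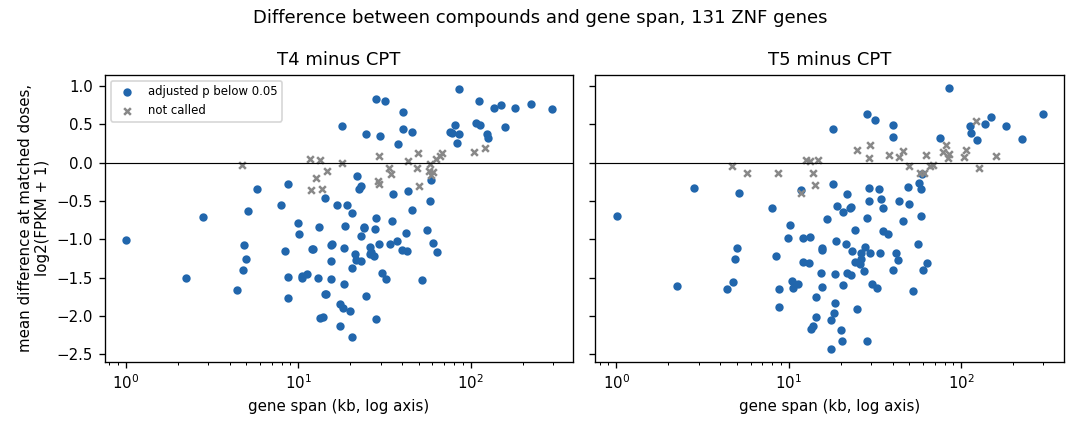
Mean difference at matched doses on the log2(FPKM + 1) scale (y axis), T4 minus CPT on the left and T5 minus CPT on the right, against gene span (x axis, kb, log scale) for the 131 ZNF genes, with circles for an adjusted p below 0.05 and crosses for the rest. In the T4 panel none of the 33 genes of the shortest group is called higher, and 17 of the 33 longest are. Of all tested genes of any span 31.4% are called higher. The longest group includes ZNF346 and ZNF827, which passed the filter on low values only through DMSO. It also includes ZNF503, whose span was read from a record typed as non-coding RNA.

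Neighbouring ZNF genes of 1 cluster did not share 1 pattern. The longest run of neighbours in the set, with gaps of at most 250 kb, held 9 genes on chromosome 19. Among them ZNF224 had 1.98, 0.973, 0.566, 0.355 and 0.557 with T4 and 1.5, 0.718, 0.376, 0.357 and 0.735 with T5, against 3.81, 4.61, 4.57, 4.22 and 3.88 with CPT, and 3.42 in DMSO. Its CPT values lay above DMSO and its T4 and T5 values below it at each dose. ZNF45, next to it in this order, had 6.56, 3.52, 1.81, 0.965 and 0.714 with T4, 5.26, 2.42, 1.03, 0.789 and 0.716 with T5 and 7.04, 4.2, 2.26, 1.79 and 1.74 with CPT, against 6.93 in DMSO. ZNF283 had 5.33, 3.34, 1.83, 0.764 and 0.78 with T4, 4.3, 2.61, 1.13, 0.716 and 0.734 with T5 and 4.01, 1.65, 0.701, 0.752 and 0.721 with CPT, and thus was low at the high doses of all 3. ZNF576 (-1.41) and ZNF234 (-0.83) were lower with T4 than with CPT like ZNF224 (-1.52), while ZNF283 (0.37), ZNF227 (0.35) and ZNF226 (0.04) had positive mean differences. ZNF428, inside the same run, had 15.4, 18, 12.7, 10.8 and 13.7 with T4, 13, 15.3, 16.1, 21.1 and 18.3 with T5 and 9.84, 15, 15.9, 19.3 and 24.2 with CPT, all above its 9.04 in DMSO.

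**Figure D5:**
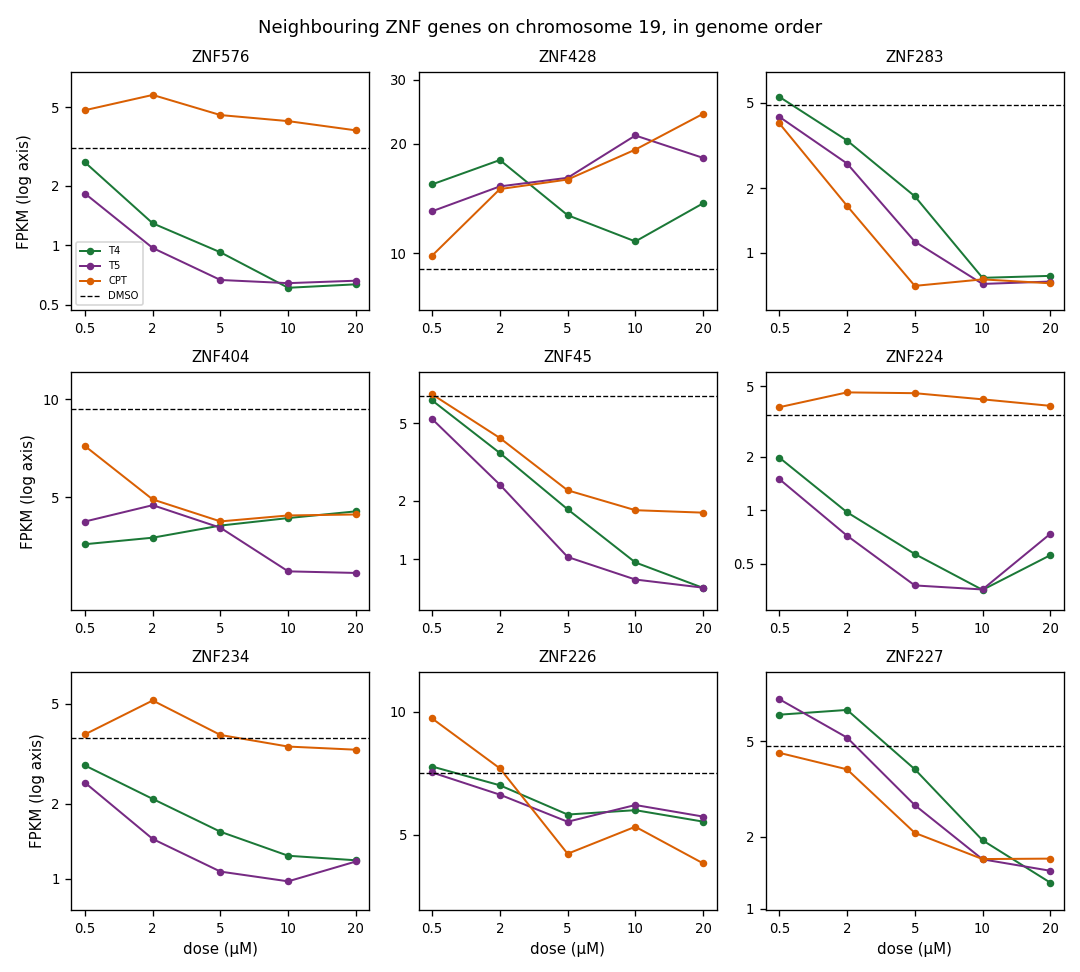
FPKM (y axis, log scale) against dose (x axis, µM) of 9 neighbouring ZNF genes on chromosome 19, in genome order, with T4, T5 and CPT (1 library per point) and DMSO as a dashed line. ZNF224, ZNF234 and ZNF576 are lower with T4 and T5 than with CPT at every dose, and ZNF45, ZNF283 and ZNF227 drop with all 3 compounds.

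Promoters (250 bases before to 50 after the start, RefSeq, GRCh38.p14) were at hand for 115 of the 131 genes. All words of 4 letters, any letter and 5 letters were counted on both strands, and CTACANTTCC had the largest excess over other tested genes, so it was chosen from these promoters. It is part of an element that ZNF143 is known to bind. It occurred in 18 of the 115 genes (15.7%), in 2.30% of 7862 other tested genes and in 1.27% of all 27305 genes with a promoter. The ETS core CCGGAAG, also on either strand, occurred in 43 (37.4%), in 23.6% and in 12.2%. Genes with CTACANTTCC had a median trend of -1.10 with T4, against -1.20 for those without it, of -1.0 against -0.98 with T5 and of -0.90 against -0.44 with CPT. Of the 18, 14 fell with T4, 12 with T5 and 10 with CPT, and of the 97 genes without it 73, 70 and 41 did. Of all tested genes 36.3%, 35.3% and 29.8% fell, and of the ZNF set 74.8%, 71.8% and 45%. The genes with and without the motif were not tested against each other. The motif stood in 5 genes of the run, which moved in different ways, and in ZNF146 and ZNF317, which were among the 5 largest falls with T4 and with T5. Their sequences are shown 5' to 3' on the strand that reads CTACANTTCC, with the motif in capitals. The genomic positions (GRCh38.p14) are chr19:43827240-43827289 (plus strand), chr19:43935285-43935334 (plus), chr19:44094245-44094294 (minus), chr19:44141513-44141562 (minus), chr19:44164956-44165005 (minus), chr19:36214954-36215003 (minus) and chr19:9140298-9140347 (plus), in the order given, all before the start of their gene.
ZNF283: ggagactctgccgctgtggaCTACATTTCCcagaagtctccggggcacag
ZNF45: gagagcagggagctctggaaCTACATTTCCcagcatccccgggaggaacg
ZNF224: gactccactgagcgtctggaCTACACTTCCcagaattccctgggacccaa
ZNF234: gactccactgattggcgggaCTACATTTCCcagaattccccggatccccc
ZNF226: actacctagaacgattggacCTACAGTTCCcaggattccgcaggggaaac
ZNF146: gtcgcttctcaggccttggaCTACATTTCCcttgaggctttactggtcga
ZNF317: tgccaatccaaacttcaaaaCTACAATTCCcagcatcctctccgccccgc
ZNF45 and ZNF224 both hold the motif, and their CPT trends were -1.68 and 0.02. A match is a description of the letters and not a shown binding site.

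Other rules of choice mostly took genes of the same set and used the same fits, so their counts are no separate support. When ZNF genes were taken by a mean FPKM of at least 3 over the 15 treated libraries, 83 genes met the rule and 75 of them belonged to the 131. Of these 83, 56 (67.5%) fell and 3 rose with T4, 54 (65.1%) fell and 7 rose with T5, and 33 (39.8%) fell and 15 rose with CPT. Of all tested genes 36.3%, 35.3% and 29.8% fell and 23.3%, 26.8% and 23.4% rose. With at least 5 in DMSO there were 63 genes, all of them in the set and chosen by the same DMSO library. Of these, 47 (74.6%) fell with T4, 43 (68.3%) with T5 and 33 (52.4%) with CPT. Of the 396 ZNF genes below the threshold in DMSO, 69 reached 3 in at least 1 treated library.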

How the data were processed

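RNA of U2OS cells was sequenced in 16 libraries. The authors deposited FPKM values (fragments scaled by transcript length and mapped fragments) in 1 matrix, per the file headers. The submitters' processing notes list GSNAP, Cufflinks, hg19 and GRCh37 without roles. Versions, annotation and strand: not given in the sources used here. Left out were 2 inner header lines, 1 incomplete line and 220 repeats with identical values, and 4531 of the 25270 genes were listed at 0 throughout. FPKM summed to 238669 to 285143 per library. Total depth is unknown, so no counting intervals are given, and relative depth was read from the steps of values below 0.2.

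Genes averaging an FPKM of 1 or more in the 16 libraries were tested with limma 3.58.1 (R 4.3.3, trend option, 2-sided, Benjamini-Hochberg over 10600 genes) on log2(FPKM + 1), which understates changes of low genes. The 15 treated libraries entered 1 fit with an intercept and a slope on log2 dose per compound (9 residual degrees of freedom), whose slopes were compared in 3 pairs. A second fit had dose as a block (8 residual degrees of freedom). DMSO was left out of both fits, because it chose the genes, but entered the filter. With 1 library per dose, p-values measure scatter around lines and between doses, not between replicate cultures. The set, the gene lists and the tests were chosen with earlier results of these data known, and the fit was tested on simulated data.

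Genes are named by rule: the 5 largest falls and rises per compound and the 4 largest differences in each direction per pair past the threshold, the 6 highest in DMSO, the 3 on either side of the threshold, and the members of 3 lists of roles. For the genes of KRAB repression the 3 largest trends per compound are named, and TRIM28 was added after its values were seen. The chromosome 19 run was named by its length. Spans, fingers and KRAB patterns come from GENCODE release 29 and promoters from RefSeq, both on GRCh38, and no coordinates of the files' build are used. Alternatives were other pseudocounts, filters, scalings, dose scales, fits and gene rules, leaving out each treated library and, chosen after seeing the data, a filter on the 15 treated libraries alone.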

Additional observations from a re-analysis of the deposited data

Results flagged for a closer look

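The dose trends of 12 named ZNF genes differed between T4 and CPT, and those of 7 between T5 and CPT, by the limma test of the difference itself. The T4 minus CPT differences from 0.5 to 20 µM on the log2(FPKM + 1) scale were -2.19 ± 0.31 for ZNF669 (adjusted p = 0.00126), -2.10 ± 0.30 for ZNF217 (0.00137), -2.04 ± 0.32 for ZNF317 (0.00208), -1.98 ± 0.34 for ZNF7 (0.00374) and -1.85 ± 0.47 for ZNF574 (0.0262). They were -1.84 ± 0.41 for ZNF639 (0.0149), -1.54 ± 0.28 for ZNF428 (0.00535), -1.47 ± 0.23 for ZNF274 (0.00223), -1.43 ± 0.38 for ZNF598 (0.0307), -1.32 ± 0.39 for ZNF697 (0.0495), -1.30 ± 0.18 for ZNF687 (0.00116) and -0.88 ± 0.24 for ZNF219 (0.0385).

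The T5 minus CPT differences were -2.02 ± 0.32 for ZNF317 (adjusted p = 0.0036, limma), -1.85 ± 0.41 for ZNF639 (0.0175), -1.77 ± 0.30 for ZNF217 (0.00518), -1.69 ± 0.31 for ZNF669 (0.00737), -1.50 ± 0.34 for ZNF7 (0.0187), -1.14 ± 0.23 for ZNF274 (0.0113) and -1.11 ± 0.18 for ZNF687 (0.00434). Both comparisons share the CPT libraries. Groups of 4 or more replicates, in which a single far sample could be looked for, do not exist in this design.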

How the results depend on the processing

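The labels give no replicate numbers, so no block by replicate was fitted, and the comparisons at matched doses had dose as a block. Counts of falling ZNF genes moved most with the dose scale. On a linear scale 51 fell with T4, 38 with T5 and 0 with CPT, where 0 rose, and the trend differences had 8 lower and 0 higher for T4 minus CPT, and 5 and 0 for T5 minus CPT. Median centring gave 16 rises with T4, 17 with T5 and 22 with CPT, 8 and 7 higher trend differences of T4 and T5 from CPT, 31 ZNF genes higher with T5 than CPT at matched doses, and 3 higher and 2 lower with T5 than T4. Quantile normalization gave 13 rises with T4, 13 with T5 and 17 with CPT, 7 and 6 higher trend differences, 29 higher with T5 than CPT, and 0 lower with T5 than T4. A pseudocount of 0.1 left 1 higher trend difference for each of T4 and T5 from CPT. Without a filter on low values there were 0 for T4, and 1 ZNF gene was lower with T5 than T4. With DMSO as dose 0, which brings in the library that chose the genes, 20 rose with CPT, 75 trends were lower and 9 higher for T4 minus CPT, 74 and 6 for T5 minus CPT, and the median T5 minus T4 trend difference turned to -0.17. Values of that fit, here and below, are given for completeness only, and nothing is read from them about the set. Without the dose block 6 were higher with T4 than CPT, 5 with T5 than CPT and 0 lower with T5 than T4. A threshold of 5 in DMSO gave 63 genes, and a treated mean of at least 3 gave 83.

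Filtering on the 15 treated libraries alone, chosen after seeing the data, left 129 ZNF genes and moved no count of them by over 1.5 times.

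Leaving out 1 library at a time gave 73 to 102 falls and 3 to 6 rises with T4, 56 to 96 and 6 to 7 with T5, and 21 to 65 and 0 to 13 with CPT. Trend differences were lower in 12 to 38 and higher in 0 to 4 for T4 minus CPT, and lower in 9 to 32 and higher in 0 to 4 for T5 minus CPT. At matched doses 0 to 19 were lower and 0 to 2 higher with T5 than T4. The lowest counts for CPT and for both trend differences, except the higher ones of T5 minus CPT, came without 0.5 µM CPT. The T4 rises numbered 6 without 0.5 µM T4. Higher trend differences for T4 minus CPT also numbered 0 without 10 µM CPT, without 2, 10 or 20 µM T4 and without 5 or 10 µM T5, 1 without 5 µM T4 or 2 µM T5, and 4 without 0.5 µM T4. For T5 minus CPT they numbered 0 without 20 µM T5, 1 without 0.5 or 10 µM CPT and 4 without 0.5 µM T4.

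Among named genes, the CPT trend of ZNF207 lay between -0.69 and 0.23 with 1 library left out, turning positive without 0.5 µM CPT, and that of other genes turned to 0.90 for ZNF697 and 0.98 for ZNF75A with DMSO as dose 0. The T4 trend of ZNF219 turned to 0.46 with centring and 0.49 with quantile normalization, the T5 trend of ZNF326 to 0.45 and the T5 minus CPT difference of ZNF185 to 0.03 with centring. Where no construction of the alternative shows it, the cause was not tested. Over all alternatives 414 values of named genes lost their call, 122 gained one and 6447 were as before. FPKM carries no depth, so the precision of low values is unknown.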
